A study of Homo sapiens with 12 samples.

Results

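The comparison described here is between HCT116 cells rescued with DICER lacking its double-stranded RNA-binding domain (ΔdsRBD, called the deletion here) and the same line rescued with WT DICER. All 4 libraries labelled with these forms were used, 2 for each form, of 12 in the series, and every human miRNA name in their count tables belonged to the comparison. Of the 1854 names listed for HCT116, 795 had enough reads to be tested, and 30 added spike-in RNAs served for scaling and as a control. HCT116 is a human colorectal carcinoma line. The other libraries of the series were HCT116 cells rescued with a form labelled AA, whose change the labels do not describe, and HEK293T cells, a human embryonic kidney line, rescued with WT, ΔdsRBD or AA, again 2 libraries for each form. RNA was extracted with TRIzol, 100 µg of it entered each AQ-seq library, a small RNA protocol built to reduce ligation bias, and the libraries were read on a NovaSeq 6000. How the parental cells were made, whether each rescue was 1 clone, how much of each DICER form the cells held, and whether the libraries of a group came from separate cultures are not stated in the labels. The missing domain, the amount of DICER in the cells and the clone thus cannot be told apart as sources of a difference, and p-values measure only the spread between these libraries, which may be technical. The tables count miRNAs and not mRNAs, so the DICER transcript itself gave no check of the labels.

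DICER takes a precursor hairpin that DROSHA has already trimmed, holds it by its base and cuts both strands near the loop. The product is a duplex of the strand from the 5′ side of the hairpin, the 5p arm, and the strand from the 3′ side, the 3p arm. Argonaute keeps 1 strand as the working miRNA and the other is mostly lost, and bases 2 to 8 of the kept strand, the seed, pair with target mRNAs. The position of the cut sets the 3′ end of the 5p arm and the 5′ end of the 3p arm, so it sets the seed of 3p miRNAs. The double-stranded RNA-binding domain lies at the C-terminal end of DICER and contacts the stem of the precursor.

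The mature sequences of the miRNAs that the levels turn on are given first, 5′ to 3′ from RefSeq (GRCh38.p14), with the seed in capitals; 695 of the 795 tested names matched an entry. The first set holds the 12 names of at least 100 CPM (reads scaled to library size, with TMM as described with the levels) that fell most with the deletion.
miR-615-3p: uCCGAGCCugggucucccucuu
miR-3200-3p: cACCUUGCgcuacucaggucug
miR-331-3p: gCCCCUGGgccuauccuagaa
miR-1180-3p: uUUCCGGCucgcgugggugugu
miR-27b-3p: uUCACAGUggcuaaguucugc
miR-301a-3p: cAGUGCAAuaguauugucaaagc
miR-484: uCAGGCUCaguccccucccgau
miR-140-3p: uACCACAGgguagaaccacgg
miR-3615: uCUCUCGGcuccucgcggcuc
miR-29b-3p: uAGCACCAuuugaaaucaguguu
miR-574-5p: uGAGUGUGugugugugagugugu
miR-326: cCUCUGGGcccuuccuccag

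The second set shows names that share a seed but had unlike changes: the miR-29 trio, the miR-130/miR-301/miR-454 group, the miR-25/miR-92 group and the miR-221/miR-222 pair.
miR-29a-3p: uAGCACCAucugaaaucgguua
miR-29c-3p: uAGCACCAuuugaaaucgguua
miR-454-3p: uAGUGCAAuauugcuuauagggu
miR-301b-3p: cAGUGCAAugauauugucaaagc
miR-130b-3p: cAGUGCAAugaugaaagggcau
miR-25-3p: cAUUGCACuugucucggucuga
miR-92b-3p: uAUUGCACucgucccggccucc
miR-92a-3p: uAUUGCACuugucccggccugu
miR-32-5p: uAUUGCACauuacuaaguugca
miR-221-3p: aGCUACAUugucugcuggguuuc
miR-222-3p: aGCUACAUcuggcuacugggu

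The third set holds the most abundant miRNA of these cells and the pair of names, among the 12 largest rises at 100 CPM, that were called higher also against the spike-ins.
miR-21-5p: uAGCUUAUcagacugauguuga
miR-25-5p: aGGCGGAGacuugggcaauug
miR-92a-1-5p: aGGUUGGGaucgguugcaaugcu

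Hairpins are shown where the balance of the arms changed, with both mature arms in capitals and the flanks and the loop in lower case. MIR25 lies at chr7:100093560-100093643, minus strand, MIR29B1 at chr7:130877459-130877539, minus strand, MIR27B at chr9:95085445-95085541, plus strand, MIR574 at chr4:38868032-38868127, plus strand, MIR185 at chr22:20033139-20033220, plus strand and MIR219A1 at chr6:33207835-33207944, plus strand (GRCh38).
MIR25: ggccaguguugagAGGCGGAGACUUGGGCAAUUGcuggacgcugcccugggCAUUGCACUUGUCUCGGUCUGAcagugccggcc
MIR29B1: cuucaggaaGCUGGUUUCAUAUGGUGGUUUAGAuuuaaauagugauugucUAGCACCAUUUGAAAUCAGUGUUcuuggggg
MIR27B: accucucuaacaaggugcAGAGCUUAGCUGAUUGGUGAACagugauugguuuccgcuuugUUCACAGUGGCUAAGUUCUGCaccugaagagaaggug
MIR574: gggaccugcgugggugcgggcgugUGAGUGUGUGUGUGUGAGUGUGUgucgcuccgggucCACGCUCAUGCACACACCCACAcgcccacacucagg
MIR185: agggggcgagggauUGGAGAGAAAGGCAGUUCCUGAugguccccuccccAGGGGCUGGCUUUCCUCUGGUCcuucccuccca
MIR219A1: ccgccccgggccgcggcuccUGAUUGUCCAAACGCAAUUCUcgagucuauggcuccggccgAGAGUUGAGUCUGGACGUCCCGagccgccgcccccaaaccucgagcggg

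The WT libraries held 4498886 and 4056722 miRNA reads and the deletion libraries 824987 and 1353117, so that 3 reads, the most that a count of 0 allows, were 0.755 and 0.903 CPM with WT and 3.10 and 1.74 CPM with the deletion. Such limits cover counting error only, since reads without molecular identifiers are not independent molecules. For each spike-in read there were 274 and 367 miRNA reads with WT and 63.7 and 64.7 with the deletion, 4.99-fold fewer, and the groups did not overlap (two-sided exact permutation p = 0.333, the smallest that 2 against 2 libraries allow). Tested among themselves, none of the 30 spike-ins was called: edgeR called 0 at an adjusted p of 0.05, 0 at an unadjusted p of 0.05, and DESeq2 called 0; without WT replicate 1 edgeR called 1 lower. In bulk RNA, fewer cells that make a miRNA and less of it per cell cannot be told apart.

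Markers of cell types were summed over all their listed names in TMM-scaled CPM. The 10 names of the epithelial miR-200 and miR-205 hairpins summed to 5498 and 5957 CPM with WT and 2498 and 2166 CPM with the deletion. Of their 9 tested names 3 were higher and 4 lower by TMM (median −0.01), beside 28.1% and 34.1% of all names. By spike-ins 0 were higher and 7 lower. The colon hairpins miR-192, miR-194 and miR-215 summed to 434 and 457 CPM with WT and 416 and 405 CPM with the deletion, with none of their 4 tested names called; by library totals alone these were 383 and 374 with WT and 488 and 517 with the deletion. Muscle miRNAs summed to 1.51 and 1.81 CPM with WT and 3.10 and 2.90 CPM with the deletion with 0 names tested and 2 of 5 at 0 in all 4 libraries, liver miR-122 to 4.53 and 2.41 CPM with WT and 14.5 and 5.797 CPM with the deletion, and the pluripotency hairpins miR-302, miR-367 and miR-371 to miR-373 to 8.81 and 8.13 CPM with WT and 12.4 and 13.9 CPM with the deletion. Blood miRNAs summed to 519.7 and 522 CPM with WT and 143 and 192 CPM with the deletion. Of their 4 tested names miR-142-3p was called lower (413 and 414 to 77.4 and 76.5 CPM) and miR-144-3p higher (5.79 and 5.72 to 11.4 and 13.3 CPM, −0.63 on the log2 scale by spike-ins), and miR-142-5p and miR-223-3p were not called (median of the 4 0.35). Brain miRNAs summed to 3343 and 3110.0 CPM with WT and 2339 and 2054 CPM with the deletion, and by library totals alone to 2953 and 2546 with WT and 2747 and 2618 with the deletion, where the groups overlapped. Of their 6 tested names 2 were lower, miR-128-3p (2119 and 1691 to 172 and 179 CPM) and miR-219a-5p, and 4 higher by TMM, among them miR-9-5p (850.4 and 1022 to 1439 and 1216 CPM, −1.32 by spike-ins). The part of these shifts in the results was not tested.

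With the deletion, the typical miRNA was less abundant against the spike-ins, and around that typical miRNA single names spread over several orders of magnitude. Levels here are CPM scaled by TMM, which sets the typical name to no change (median log2 fold change of all 795 names −0.01), and a name is called when edgeR's quasi-likelihood test gives an adjusted p under 0.05 (Benjamini-Hochberg over all 795 names, two-sided). On this scale 223 names were higher (28.1%) and 271 lower (34.1%), 62.1% called in all, and the WT and deletion libraries did not overlap for 82.5% of names. The falls went further than the rises: 141 called names fell at least 4-fold and 49 at least 16-fold, while 23 rose at least 4-fold. Scaled to library totals the counts were 317 higher and 198 lower with a median of 0.52, by the upper quartile 281 and 231 with a median of 0.27, and by DESeq2 179 and 254. Scaled to the spike-ins 7 names were higher (0.881%) and 598 lower (75.2%), with a median of −1.78. A rise on the TMM scale is therefore a rise relative to the typical name.

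Abundant names were called lower in larger shares: of 168 names at 100 to 1000 CPM 72 were higher and 75 lower, of 85 at 1000 to 10000 CPM 24 and 47, and of 12 above 10000 CPM 2 and 8, a difference between classes that was counted and not tested. The plot of level against level shows this spread.

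**Figure D1:**
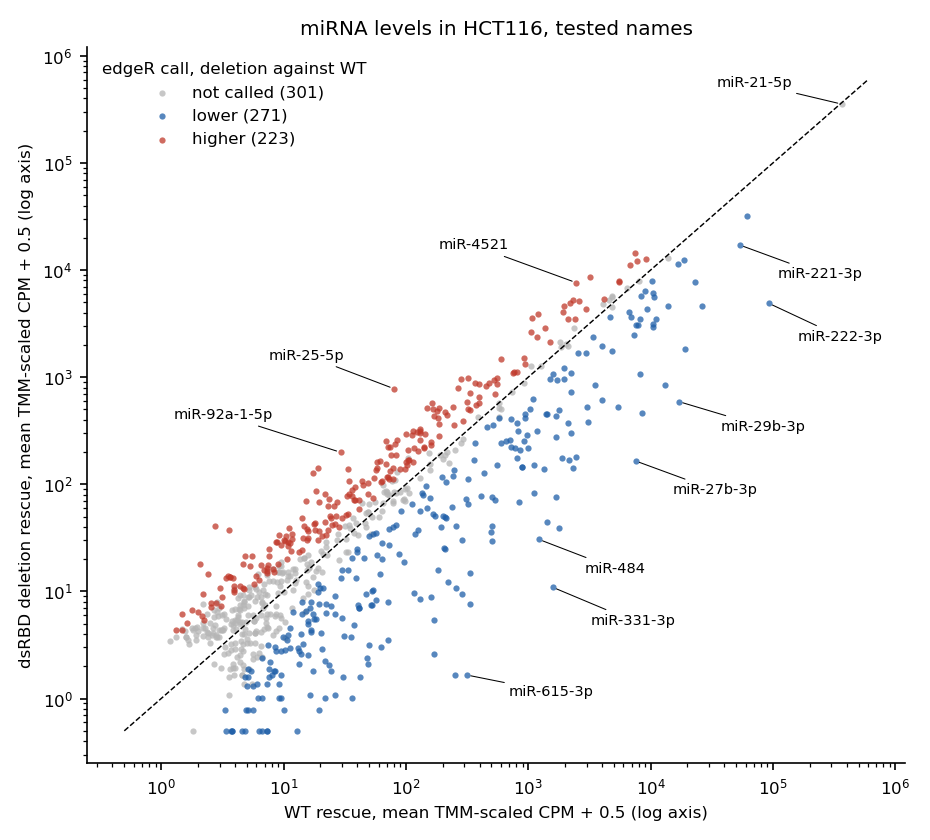
Level of each tested miRNA in HCT116, mean of the 2 WT libraries (x axis) against mean of the 2 deletion libraries (y axis), both in TMM-scaled CPM on log axes. Coloured points are the 223 names called higher and 271 called lower, the dashed line marks equal levels, and miR-331-3p and miR-615-3p lie far under it while miR-25-5p lies above it.

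Among the most abundant miRNAs of these cells, miR-21-5p was not called and miR-222-3p fell over 16-fold. MiR-21-5p, which represses PDCD4 and comes from chr17:59841266-59841337 in an exon of VMP1, stood at 342980.0 and 387192 CPM with WT and 382699 and 325111 CPM with the deletion. The groups overlapped, and the log2 fold change was −0.04 ± 0.11 (SE, edgeR adjusted p = 0.729); without deletion replicate 1 it was −0.31 and called (adjusted p = 0.0443). Its share of all miRNA reads went from 30.3% and 31.7% to 44.9% and 41.4%, and against the spike-ins it stood at −1.86 on the log2 scale. MiR-222-3p, a repressor of the cell cycle inhibitor CDKN1B, was at 89272 and 95249 CPM with WT and at 5484 and 4309 with the deletion, 18.8-fold lower in libraries that did not overlap (log2 fold change −4.24 ± 0.14, edgeR adjusted p = 3.40e-09). MiR-221-3p has the same seed and a neighbouring hairpin (MIR221 at chrX:45746157-45746266, MIR222 at chrX:45747015-45747124, both in an intron of MIR222HG), and it went from 51488 and 55426 to 18011 and 16252 CPM. Its log2 fold change was −1.64 ± 0.11 (edgeR adjusted p = 3.45e-07), and the difference between the pair was not tested.

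Most of the other abundant names fell by less than miR-222-3p. MiR-29a-3p, which targets collagen mRNAs, went from 21099 and 31062 to 4553 and 4759 CPM, a log2 fold change of −2.49 ± 0.17. MiR-24-3p went from 22781 and 23364 to 8001 and 7475 CPM (−1.58 ± 0.11), and its reads can come from MIR24-1 and MIR24-2. Both names had libraries that did not overlap. MiR-31-5p, abundant in colorectal cancer cells, went from 61096 and 62177 to 32710.4 and 31667 CPM (−0.94 ± 0.10). MiR-16-5p, a repressor of BCL2, went from 18203 and 19489 to 12454 and 12421 CPM (−0.60 ± 0.10), and miR-23a-3p from 16067 and 17248 to 9775 and 13072 CPM (−0.54 ± 0.14). These 5 names were called lower, with edgeR adjusted p values from 4.05e-07 to 0.00689. Let-7a-5p, of the family that represses RAS and HMGA2, was at 13448 and 14336 CPM with WT and at 14637 and 11366 CPM with the deletion, in libraries that overlapped (−0.10 ± 0.13, edgeR adjusted p = 0.530); without deletion replicate 1 it was called at −0.43. MiR-19b-3p, of the miR-17-92 cluster, went from 8526 and 9941 to 11931 and 13413 CPM (0.46 ± 0.12, edgeR adjusted p = 0.00723) and was −1.35 against the spike-ins. That call was lost without WT replicate 1 (adjusted p = 0.214) and without deletion replicate 2 (adjusted p = 0.0700).

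Beside miR-21-5p, the names of at least 1000 CPM that moved least were miR-361-5p (−0.01), miR-181b-5p (0.02), miR-125a-5p (0.03) and miR-20a-5p (−0.04), with edgeR adjusted p values of 0.939, 0.886, 0.886 and 0.746. MiR-361-5p stood at 1236 and 1314 CPM with WT and at 1267 and 1264 CPM with the deletion, and miR-20a-5p, of the MIR17HG cluster, at 7474 and 8653 CPM with WT and 7443 and 8195 CPM with the deletion. MiR-125a-5p stood at 1881 and 1832 CPM with WT and 1452 and 2338 CPM with the deletion, and without deletion replicate 2 it was called lower at −0.45. These names stayed with the typical miRNA on the TMM scale, and against the spike-ins they were between −1.85 and −1.74.

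The miRNAs with the largest falls were nearly emptied, and 8 of the 12 printed first come from the 3p arm. Of all 795 tested names 311 were 3p names, and of the 271 called lower 150 were, so these shares were counted and not tested. MiR-331-3p represses ERBB2 and comes from chr12:95308420-95308513, which no gene on its strand spans in full. It was at 1283 and 1881 CPM with WT and at 9.29 and 11.6 CPM with the deletion. These falls were chosen among names whose groups do not overlap, so that separation is no result; the fall of miR-331-3p was 147-fold (log2 fold change −7.20 ± 0.28, edgeR adjusted p = 6.38e-09). MiR-615-3p, from an intron of HOXC4 (chr12:54033950-54034045), was at 348 and 281 CPM with WT and had 0 and 4 reads in the deletion libraries (log2 fold change −7.69 ± 0.39, edgeR adjusted p = 3.21e-08). MiR-3200-3p, from an intron of OSBP2 (chr22:30731557-30731641), was at 266 and 233 CPM with WT and had 0 and 4 reads with the deletion (−7.36 ± 0.38, edgeR adjusted p = 3.78e-08). Both folds rest on a handful of reads and are rough. MiR-1180-3p, from an intron of B9D1 (chr17:19344506-19344574), went from 399 and 266 to 7.23 and 6.96 CPM, 46.9-fold lower.

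Abundant miRNAs were among these falls. MiR-27b-3p, which represses PPARG and CYP1B1, went from 7805 and 7247 to 162 and 168 CPM, 45.6-fold lower (−5.51 ± 0.14, edgeR adjusted p = 9.98e-10). MiR-29b-3p, which represses collagens and DNA methyltransferase 3 enzymes and can come from MIR29B1 and MIR29B2 (chr1:207802443-207802523), went from 14272 and 19788 to 539 and 643 CPM, 28.8-fold lower (−4.85 ± 0.23). In both cases the lowest WT library was above the highest deletion library by more than 10-fold. MiR-301a-3p, from an intron of SKA2 (chr17:59151136-59151221), went from 1626 and 1967 to 32.0 and 45.2 CPM (−5.50 ± 0.20). MiR-140-3p, whose hairpin lies in an intron of WWP2 (chr16:69933081-69933180) and is known for its role in cartilage, went from 1401 and 1424 to 41.3 and 46.4 CPM (−4.996 ± 0.16). MiR-484, whose hairpin is the capped 5′ end of the NDE1 transcript (chr16:15643294-15643372) and does not need DROSHA, went from 1350.2 and 1085 to 33.0 and 27.2 CPM (−5.36 ± 0.20). MiR-3615, from chr17:74748613-74748699, which no gene on its strand spans in full, went from 301 and 276 to 8.26 and 9.85 CPM (−4.96 ± 0.21). MiR-574-5p, from an intron of FAM114A1, went from 292 and 222 to 12.4 and 8.12 CPM (−4.71 ± 0.26), and miR-326, from an intron of ARRB1 (chr11:75335092-75335186), from 374 and 290.2 to 11.4 and 17.4 CPM (−4.46 ± 0.24). All 12 of these falls were called (edgeR adjusted p values from 9.98e-10 to 6.85e-08), stayed below 0 under library totals, upper-quartile, DESeq2 and spike-in factors, and were between −9.40 and −6.22 against the spike-ins.

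**Figure D2:**
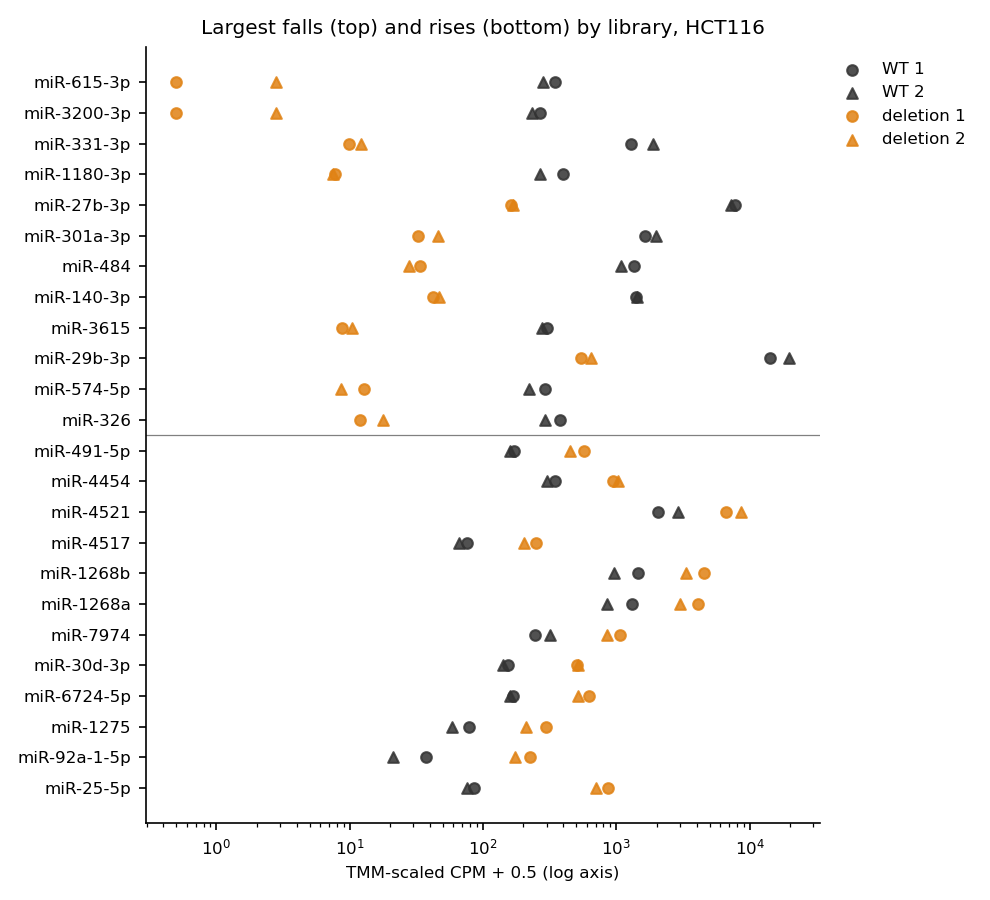
TMM-scaled CPM (log axis) of the 12 largest falls and the 12 largest rises in each of the 4 HCT116 libraries, 2 with WT and 2 with the deletion, a point for each library. The WT points of every fall lie above both deletion points, and those of every rise lie under them, since names were chosen only where the groups do not overlap.

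Rises, chosen by the same rule, were smaller, and against the spike-ins most of them were gone. MiR-25-5p, the usually minor arm of MIR25 in an intron of MCM7, was at 84.3 and 74.7 CPM with WT and at 863 and 697 CPM with the deletion. It rose 9.78-fold (log2 fold change 3.29 ± 0.17, edgeR adjusted p = 3.86e-08), and by 1.504 on the log2 scale against the spike-ins, still called. MiR-92a-1-5p, the minor arm of MIR92A1 in the MIR17HG cluster (chr13:91351314-91351391), went from 37.0 and 20.5 to 225 and 172 CPM (2.76 ± 0.26, edgeR adjusted p = 4.68e-06), with 1.02 against the spike-ins, also called. The others among the 12 largest were not called higher against the spike-ins. MiR-4521 (chr17:8186945-8187004) was the most abundant of them, at 2037 and 2882 CPM with WT and 6596 and 8669 CPM with the deletion (1.63 ± 0.21 by TMM, −0.18 by spike-ins). MiR-30d-3p (1.79), miR-491-5p, a repressor of BCL-XL (1.62), miR-7974 (1.77) and miR-4517 (1.66) were at 0.01, −0.17, −0.06 and −0.12 by spike-ins. MiR-1275 (1.88), miR-6724-5p (1.79), miR-4454 (1.62), miR-1268a (1.70) and miR-1268b (1.70) were at 0.11, 0.00, −0.16, −0.06 and −0.07. MiR-6724 lies in the ribosomal DNA repeats, and miR-1268a and miR-1268b are near-identical and could share reads. Over the whole table, the 7 names called higher by spike-ins were miR-4497, miR-219a-1-3p, miR-25-5p, miR-3182, miR-365a-5p, miR-197-5p and miR-92a-1-5p, named after their values were seen.

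Summing both arms of a hairpin asks whether its products fell as a whole. Of 562 hairpins tested, 133 were higher (23.7%) and 189 lower (33.6%), 57.3% in all; by spike-ins 2 were higher and 440 lower, by library totals 202 and 138, and by the upper quartile 223 and 129. The WT and deletion libraries did not overlap in 439 hairpins (78.1%). The largest falls at 100 CPM were those of miR-615 (−6.90 ± 0.29), miR-484 (−5.34 ± 0.20), miR-574 (−5.17 ± 0.26), miR-3615 (−4.94 ± 0.21) and miR-1180 (−4.86 ± 0.28). MiR-574 lost both arms: miR-574-3p went from 199 and 141 CPM to 3 and 2 reads (−6.48 ± 0.37), and the hairpin from 485 and 357 to 15.5 and 9.26 CPM. MiR-140 also lost both, with miR-140-5p at −3.65 beside miR-140-3p at −4.996. MiR-331, miR-29b and miR-25 fell less as hairpins, by 2.82, 1.76 and 2.78 on the log2 scale, than the 7.20, 4.85 and 4.21 of their 3p arms. MiR-27b fell by 4.77, miR-222 by 4.12 and miR-221 by 1.36, and miR-21 stood at −0.01 (edgeR adjusted p = 0.918). The largest rises of hairpins were those of miR-1275, miR-6724, miR-7974, miR-1268a and miR-1268b, between 1.72 and 1.90 by TMM and between −0.07 and 0.11 by spike-ins.

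The 3p arm was the losing side in most hairpins that changed their balance. Of the 311 tested 3p names 58 were higher and 150 lower with a median log2 fold change of −0.91 (−0.87 with the 11 names at 0 in both deletion libraries set to their bounds), and of the 339 tested 5p names 109 were higher and 86 lower with a median of 0.30, which was −1.44 by spike-ins. The 3p names took 34.3% and 34.1% of reads with WT and 14.2% and 15.99% with the deletion. Leaving out miR-21-5p, these shares were 49.3% and 49.99% against 25.9% and 27.3%, and the AA libraries had 47.7% and 47.6%. Within a hairpin, the ratio of 3p to 5p reads does not depend on how libraries are scaled. It was tested with edgeR as the interaction of arm and DICER form in 243 hairpins with at least 10 reads on each arm in at least 2 libraries, and it moved toward 5p in 112 (46.1%) and toward 3p in 43 (17.7%), 63.8% in all, with no overlap of the groups for 81.5%. Of 249 hairpins with both arms tested for level, 39 had the 5p arm higher and the 3p arm lower, 10 the reverse, 45 had both lower and 30 both higher; these levels are by TMM.

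The shift toward 5p was found mostly in hairpins that use their 3p arm. Hairpins were divided by their 3p share in the AA libraries, which take no part in the ratio of deletion to WT and enter only the estimate of spread. Of 97 hairpins with over 50% of their reads on the 3p arm there, 70 moved toward 5p (72.2%) and 1 toward 3p, with a median shift of −2.19 in the log2 ratio. Their median 3p share went from 88.1% with WT to 59.4% with the deletion. The 146 hairpins that used mainly the 5p arm split evenly, with 42 toward 5p and 42 toward 3p, a median shift of −0.13 and median 3p shares of 8.66% and 7.41%. In 33 hairpins called for arm use the major arm itself changed, in each case from 3p to 5p, and 18 of them had at least 100 CPM.

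MiR-331 had the largest of these changes. Its 3p arm held 89.5% and 91.7% of the hairpin's reads with WT and 3.86% and 4.73% with the deletion, a shift of −7.72 ± 0.29 in the log2 ratio (edgeR adjusted p = 2.24e-17). MiR-331-5p stood at 150.2 and 170.1 CPM with WT and 231 and 234 CPM with the deletion (0.54 by TMM, −1.27 by spike-ins, TMM call lost without WT replicate 1). In MIR25, printed above, the 3p arm went from 98.97% and 99.2% to 34.2% and 40.5% (−7.49 ± 0.21, edgeR adjusted p = 5.37e-20), with miR-25-3p falling from 8062 and 9095 to 449 and 475 CPM while miR-25-5p rose. MiR-29b went from 86.4% and 89.7% to 9.12% and 12.1% on the 3p arm (−5.98 ± 0.22), with miR-29b-1-5p at 1.16 and miR-29b-2-5p at 0.75 by TMM, and −0.64 and −1.04 by spike-ins. All 3 hairpins thus had their WT major arm as the minor arm in the deletion libraries. MiR-3200 went from 90.9% and 88.8% to 0 and 4 3p reads beside 18 and 34 5p reads (−6.84 ± 0.59), miR-1277, which used mainly 5p already, from 17.7% and 19.9% to 0.133% and 0.496% (−5.97 ± 0.39), and miR-203a from 92.8% and 93.5% to 21.9% and 18.3% (−5.78 ± 0.23). MiR-203b, which lies antisense to miR-203a so that their reads may not be separable, went from 92.5% and 92.7% to 20% and 14.8% (−5.96 ± 0.46). MiR-615 had 2 and 1 reads on 5p and 0 and 4 on 3p in the deletion libraries, which thus differed in its major arm. Its call (−5.59 ± 1.53) was lost without deletion replicate 1 (−4.03).

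The largest shifts toward 3p were in hairpins that use their 5p arm and lost reads from it, and in some the 3p arm also rose by TMM. MiR-219a went from 3.02% and 2.26% on the 3p arm to 42.2% and 25.3% (4.09 ± 0.44, edgeR adjusted p = 9.76e-09); miR-219a-5p, which can come from 2 loci, went from 129 and 143 to 60.9 and 103 CPM and miR-219a-1-3p from 3.78 and 2.41 to 43.4 and 31.3 (1.79 on the log2 scale by spike-ins). MiR-185 went from 5.24% and 3.99% to 33.3% and 31.1% (3.30 ± 0.25), as miR-185-5p fell from 1292 and 1385 to 147 and 132 CPM and miR-185-3p stood at 71.5 and 57.5 CPM with WT and 73.3 and 59.7 CPM with the deletion. In both, the deletion libraries lay well above the WT libraries in 3p share. MiR-139, from an intron of PDE2A, went from 4.37% and 3.51% to 24.3% and 18.5% (2.70 ± 0.27), and miR-26a, miR-30c, miR-7 and miR-30b shifted by 2.66, 1.95, 1.91 and 1.87. MiR-345 shifted by 2.12, a call lost without deletion replicate 1 (1.18, edgeR adjusted p = 0.398). The 5p arms of these 8 hairpins were all called lower, by 0.70 to 3.75 on the log2 scale. By TMM, 3p names were called higher in miR-219a (3.52), miR-139 (1.32), miR-26a (1.08), miR-30b (0.94) and miR-7 (0.55). Only miR-219a-1-3p of these was called higher also by spike-ins. The 3p name of miR-185 (0.02) and a 3p name of miR-30c (−0.20) were not called, and that of miR-345 (−1.63) was lower.

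The other hairpins of at least 100 CPM whose major arm changed, named after their values were seen, were miR-454, miR-550a, miR-505, miR-29a, miR-542, miR-455, miR-153, miR-29c, miR-423, miR-126 and miR-330. In miR-454 the 3p share went from 69.0% and 76.0% to 4.65% and 6.21%, in miR-29a from 87.5% and 90.3% to 34.8% and 35.4%, and in miR-126, known from endothelial cells, from 59.4% and 62.5% to 40.2% and 40.7%. Other hairpins lost reads and kept their major arm. MiR-27b kept its 3p arm as the larger, at 98.6% and 98.1% with WT and 56.7% and 62.2% with the deletion, and miR-27b-5p stood at −0.20 (edgeR adjusted p = 0.342); without WT replicate 1 that arm was called at −0.48. MiR-222 held 98.3% and 98.1% on 3p with WT and 92.5% and 90.9% with the deletion, and miR-221 held 97.5% and 95.6% with WT and 84.3% and 77.1% with the deletion. MiR-301a-5p fell by 0.92 and miR-1180-5p by 1.66, while miR-3200-5p at −0.54 was not called (edgeR adjusted p = 0.0723), although it was without WT replicate 1 (−0.74).

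**Figure D3:**
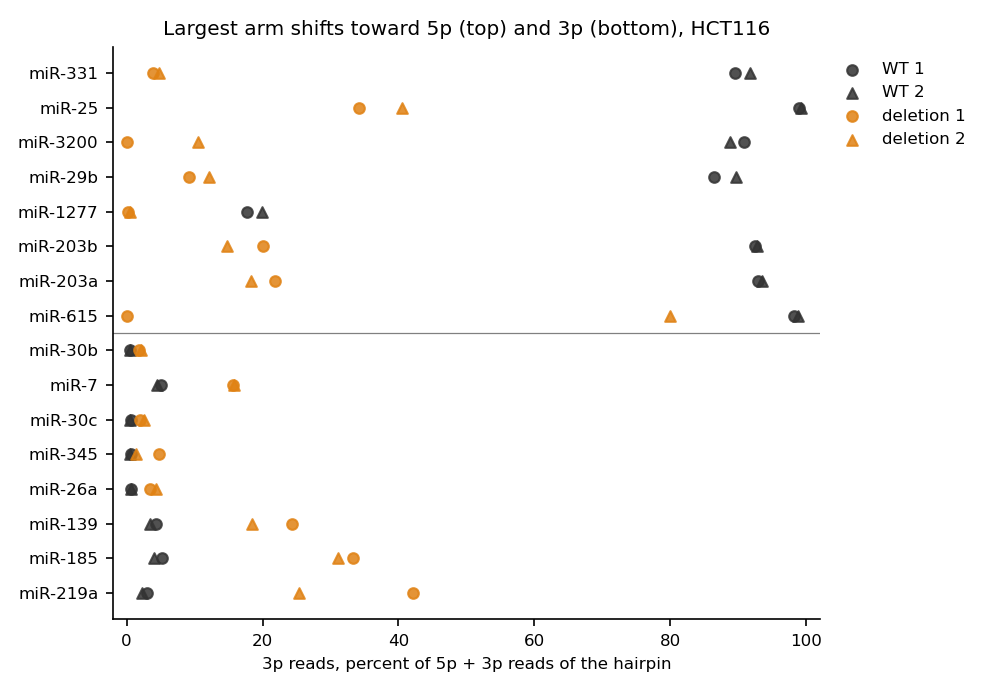
Share of a hairpin's reads on its 3p arm (percent) in each of the 4 HCT116 libraries, for the named hairpins with the largest shifts, a point for each library. MiR-331 drops from 89.5% and 91.7% with WT to 3.86% and 4.73% with the deletion, and miR-219a and miR-185 rise.

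Names with the same seed can reach largely the same target mRNAs, so the summed level of a seed is given with its members. The sums take names of at least 100 CPM with a RefSeq sequence, and the seed is that of this sequence. Counts per name do not show where reads start, so a moved cut, and with it another seed of 3p reads, would not be seen. For the seed AGCACCA of the miR-29 trio the sum was 36085 and 51850.4 CPM with WT and 5296 and 5613 CPM with the deletion, and each member was lower, with miR-29b-3p at −4.85, miR-29a-3p at −2.49 and miR-29c-3p at −2.04. For AGUGCAA it was 3219 and 3768 CPM with WT and 1273 and 1368 CPM with the deletion. Here miR-301a-3p (−5.50), miR-454-3p (−4.09) and miR-301b-3p (−1.73) were lower while miR-130b-3p was higher by TMM (0.56) and at −1.24 by spike-ins. MiR-301b-3p and miR-130b-3p share their first 12 bases, as printed above. MiR-130a-3p, of the same family, matched no sequence entry and is not in the AGUGCAA sum. It was called lower (−2.51), and its mean of 1787 CPM was above that of each member counted. For AUUGCAC the sum was 20927 and 18789.9 CPM with WT and 8445 and 7499.5 CPM with the deletion, with miR-25-3p at −4.21, miR-92b-3p at −1.84, miR-32-5p at −0.65 and miR-92a-3p at −0.51. All 4 were called lower, miR-92a-3p not without deletion replicate 2 (edgeR adjusted p = 0.0505) and not by library totals (0.00). For GAGGUAG, the let-7 seed with 9 names, it was 45953 and 49577 CPM with WT and 41643 and 33798 CPM with the deletion, and let-7d-5p (−2.74) and let-7e-5p (−1.87) fell most while let-7g-5p was at 0.49 by TMM and −1.32 by spike-ins. In each of these 4 seeds the deletion libraries had the lower sums by TMM, and by library totals the let-7 sums turned, to 40586 and 40593 with WT and 48901 and 43088 with the deletion, while the other 3 stayed lower. The let-7 sums were also the closest by TMM, at 45953 CPM in the lower WT library and 41643 CPM in the higher deletion library. Single let-7 names differ by few bases, so some of their reads may be assigned to a neighbour.

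**Figure D4:**
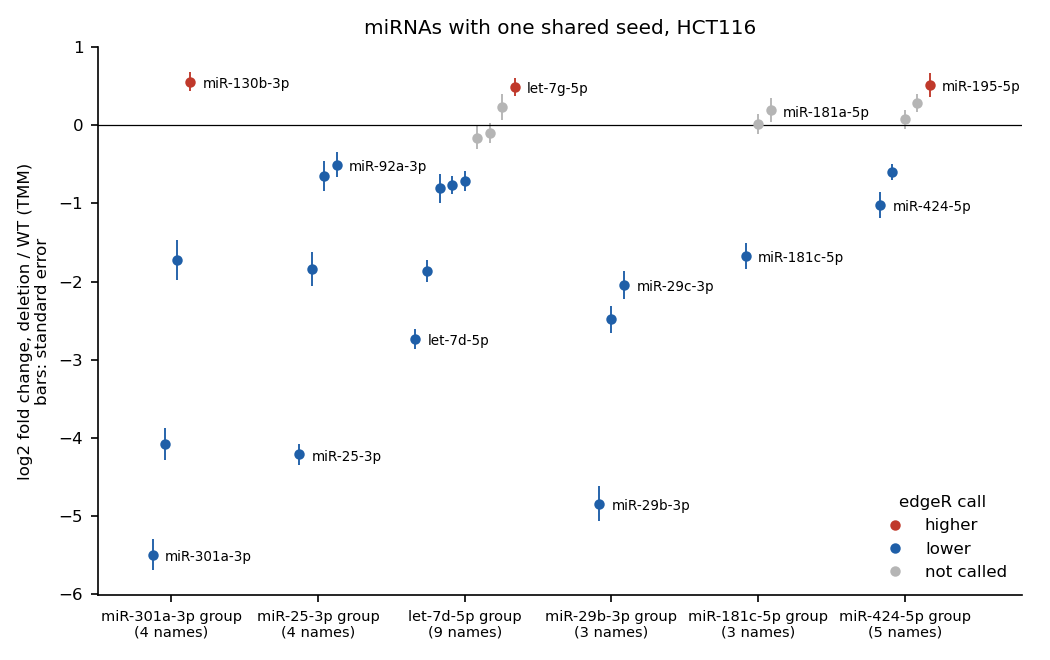
Log2 fold change (deletion over WT, TMM) with its standard error for names of at least 100 CPM with a RefSeq sequence, a point for each name. Shown are the 4 seed groups with the widest range and the ACAUUCA and AGCAGCA groups that come next. In the AGUGCAA group the points run from miR-301a-3p at −5.50 to miR-130b-3p at 0.56, while all points of the AGCACCA group lie at or under −2.04.

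Neighbouring hairpins on 1 strand had unlike changes, whose differences were not tested. In the SPACA6 intron at chr19:51692612-51693339, miR-99b fell by 3.80 and let-7e by 1.78 on the log2 scale, while miR-125a stood at 0.09 (edgeR adjusted p = 0.672). These are totals over both arms, and the 3 hairpins lie side by side on the plus strand. Within C9orf3 at chr9:95085208-95086088, miR-27b fell by 4.77, miR-23b by 2.88 and miR-24, which MIR24-2 also makes, by 1.42. MIR23B and MIR27B lie in an intron there, and MIR24-1 overlaps an exon. In the CLCN5 intron at chrX:50003148-50014683, 6 of 8 hairpins were higher and 1 lower by TMM, beside 23.7% and 33.6% of all hairpins. They ran from miR-532 at 1.20 to miR-188 at −2.14, and by spike-ins these were −0.61 and −3.94. MiR-188 was the 1 lower hairpin of that group, and miR-501 the 1 that was not called. At chr9:94175957-94178920, let-7d fell by 2.66 and let-7f by 0.65, and let-7a stood at −0.05, with other loci adding to let-7a and let-7f.

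Of all 795 names 28.1% were higher and 34.1% lower by TMM, and families of known function are given beside these shares. Of the miR-200 family, which keeps epithelial cells epithelial by repressing ZEB1 and ZEB2, 3 of 8 tested names were higher and 4 lower (median −0.43, 0.10 by library totals, −2.22 by spike-ins, where 0 were higher). Its lower members were 3p names or miR-429: miR-141-3p went from 71.0 and 72.3 to 3.10 and 2.90 CPM (−4.57), and miR-200a-3p (−2.88), miR-429 (−1.21) and miR-200b-3p (−1.04) fell less. MiR-103a-3p and miR-107, made from introns of the PANK genes and known to repress DICER1 mRNA, were both lower, from 12308 and 13965 to 779 and 909.5 CPM (−3.96 ± 0.14) and from 2326 and 2349 to 118 and 166 CPM (−4.03 ± 0.17). They are near-identical in sequence and could share reads. Of the miR-10/miR-99/miR-100/miR-125 names 6 of 13 were higher and 4 lower: miR-99b-5p went from 2629 and 2324 to 157 and 199 CPM (−3.79), while miR-10a-5p (0.95) and miR-100-5p (0.66) were higher by TMM and at −0.86 and −1.13 by spike-ins. In the miR-29 family the 3 names of the 3p arm were lower and the 4 of the 5p arm higher by TMM, which were between −1.04 and −0.36 by spike-ins. MiR-34a-5p, a known p53 target, was the 1 of 11 tested p53-linked names that was called, at −1.24.

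Calls in the other families by TMM are given as names higher and names lower of those tested, beside 28.1% and 34.1% of all names: the miR-17-92 cluster with its paralogs 6 and 11 of 23, miR-15/miR-16 2 and 4 of 14, miR-23/miR-27/miR-24 4 and 5 of 11, miR-30 6 and 4 of 11, miR-181 3 and 3 of 9, miR-148/miR-152 1 and 3 of 5, miR-183/miR-96/miR-182 0 and 4 of 6, miR-26 2 and 2 of 5, let-7 7 and 7 of 19, miR-130/miR-301/miR-454 3 and 6 of 10. By spike-ins 2 names of the miR-17-92 list and 0 of the others were higher. Of names made without the usual first step, all 5 tested DROSHA-independent names were lower: miR-484, already given, and miR-320a (−1.13), miR-320b (−1.29), miR-320c (−1.28) and miR-320d (−1.42), which are near-identical. Mirtrons, introns that splicing shapes into precursors, had 2 higher and 9 lower of 19 (median −0.65). MiR-1226-3p had 174 and 94 reads with WT and 1 and 0 with the deletion, and miR-1228-3p 116 and 44 against 1 and 0. MiR-451a, which AGO2 cuts without DICER, went from 85.1 and 79.5 to 155 and 217 CPM (1.19 ± 0.19, edgeR adjusted p = 3.00e-04), with −0.59 by spike-ins. Names that overlap snoRNA, snRNA, tRNA or rRNA genes, whose reads need not come from DICER, were called higher in 15 of 16 (median 1.55), and by spike-ins 0 were higher and 2 lower (median −0.21).

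Changes were also set against the bases next to the cut. Of 98 tested 3p names that start with U, 12 were higher and 59 lower (median −1.89, −1.60 with 6 names at 0 in the deletion set to their bounds), and of 86 that start with C, 23 and 34 (median −0.28). Of 22 that start with G, 1 was higher and 13 lower (median −0.98), and of 76 that start with A, 13 and 32 (median −0.55). As totals over both arms, hairpins whose 3p arm starts with U, C, G or A had medians of −0.45, −0.29, −0.76 and −0.07. Their median shifts in the log2 ratio of 3p to 5p were −1.90, −0.07, −0.87 and −0.51. The U class thus stood apart in the balance of the arms and not in the totals. Of 121 hairpins of at least 100 CPM with both arms in RefSeq, 28 were higher and 69 lower as totals (median −0.65). The 30 of them whose 5p arm has C as the second base from its 3′ end had 3 higher and 21 lower (median −1.61), and the 36 with G there 12 and 16 (median 0.06). Over all 307 hairpins with both arms in RefSeq these medians were −0.72 for C (80 hairpins) and −0.12 for G (105), beside −0.35 for all. Those with GC content of the arms under 40% had a median of 0.02 (23 hairpins) and those at 50 to 60% of −1.30 (36 hairpins), and over all hairpins these medians were 0.11 (51) and −0.60 (79). These classes were picked from many such medians after they were seen, they overlap each other in base composition, and no test was made of them.

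AA shares its WT libraries with the deletion, so the changes of the members are set side by side and not compared further. For the 12 largest falls, the log2 fold changes over WT with the deletion and with AA were −7.69 and −0.97 for miR-615-3p, −7.36 and −1.46 for miR-3200-3p, −7.20 and −2.15 for miR-331-3p and −5.55 and −0.53 for miR-1180-3p. They were −5.51 and −0.55 for miR-27b-3p, −5.50 and −0.20 for miR-301a-3p, −5.36 and −4.07 for miR-484 and −4.996 and −0.09 for miR-140-3p, and −4.96 and −1.05 for miR-3615, −4.85 and −0.53 for miR-29b-3p, −4.71 and −0.07 for miR-574-5p and −4.46 and −0.17 for miR-326. Of these names miR-484 had the largest fall with AA. MiR-222-3p was at −4.24 with the deletion and −0.72 with AA, miR-99b-5p at −3.79 and −2.04, and miR-25-5p, which rose, at 3.29 and 0.51 by TMM.

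Of the tested names, 12 had no read in either deletion library, and 11 of these were called lower, beside 34.1% of all names. They passed the read filter only through other HCT116 libraries, so a fall was fixed in advance and the count is no result. The deepest with WT was miR-4783-3p, with 51 and 40 reads there, at least 11.2-fold lower with the deletion when 3 reads over the group set the floor (1.11 CPM). For the others the bound was between 1.23 and 6.15, so how far they fell beyond it could not be measured at this depth.

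The same deletion in HEK293T moved many of the same miRNAs, but by different amounts. Across 539 names tested in both lines the log2 fold changes had a Pearson r of 0.699 and a Spearman rho of 0.694, as a description over names that share the libraries of each line. Of 201 names lower in HCT116 and tested in HEK293T, 156 were lower there too and 14 higher, and of 183 higher in HCT116, 125 were higher there and 21 lower. Over all 539 names 41.2% were lower and 36.2% higher in HEK293T. The difference between the lines was tested as a contrast over all 12 libraries and 844 names, and edgeR called 34.8% of them, 105 with the change in HCT116 above that in HEK293T (12.4%) and 189 under it (22.4%). Scaled to library totals these were 197 and 93.

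MiR-331-3p fell in both lines, by 7.20 in HCT116 and 6.57 in HEK293T, and the difference was −0.96 ± 0.65 (SE, edgeR adjusted p = 0.291). MiR-615-3p (−7.69 and −7.58) and miR-3200-3p (−7.36 and −7.73) were also not called for a difference (−0.44 ± 0.91 and 0.37 ± 0.76, edgeR adjusted p = 0.760 and 0.759). The contrast is fitted over all 12 libraries, so a difference need not equal that of the values fitted within each line. MiR-574 set the lines apart: miR-574-3p was at −6.48 in HCT116 and −0.37 in HEK293T, a difference of −6.42 ± 0.51 (edgeR adjusted p = 2.14e-09). In the other direction, miR-21-5p stood at −0.04 in HCT116 and −3.80 in HEK293T (3.46 ± 0.25, edgeR adjusted p = 6.83e-10), and miR-21-3p at 0.52 (−1.26 by spike-ins) and −3.96 (4.18 ± 0.34). MiR-27b-3p fell by 5.51 and 3.10, and its other arm miR-27b-5p stood at −0.20 and −4.85, so that the differences were −2.73 ± 0.24 and 4.35 ± 0.43 with opposite signs. MiR-25-5p rose by 3.29 in HCT116 and stood at 0.46 in HEK293T (2.54 ± 0.28, edgeR adjusted p = 2.06e-07), and miR-19b-3p was at 0.46 and 2.23 (−2.08 ± 0.21).

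**Figure D5:**
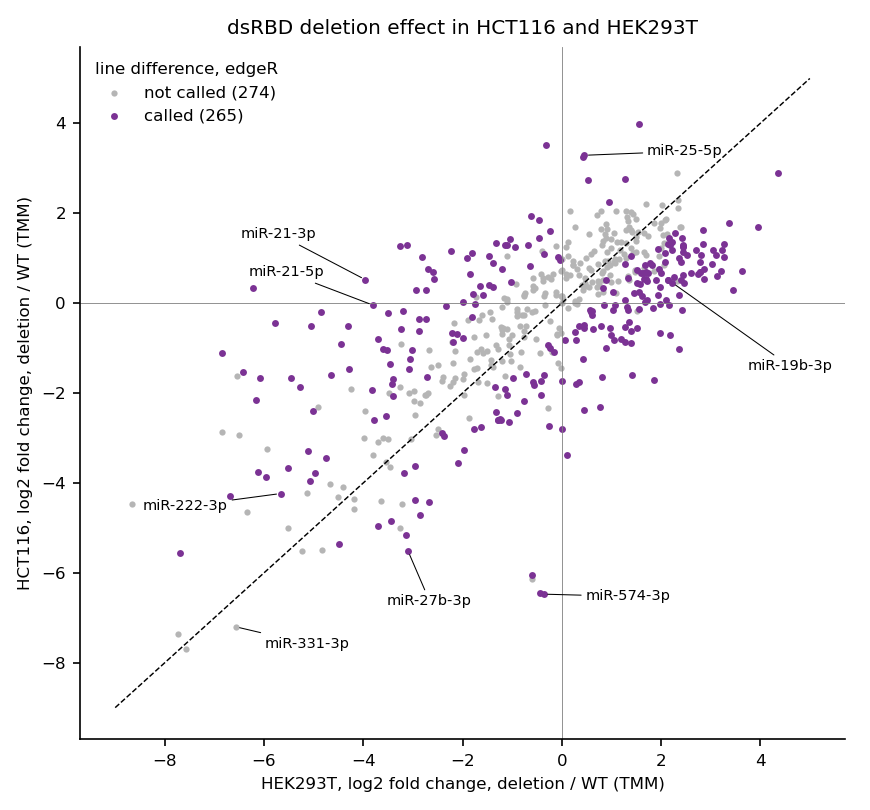
Log2 fold change of the deletion over WT in HEK293T (x axis) and in HCT116 (y axis) for the 539 names tested in both lines, TMM-scaled; purple points are the 265 names called for a difference between the lines and the dashed line marks equal change. MiR-331-3p lies near the line, and miR-574-3p and miR-21-5p lie far from it on opposite sides.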

How the data were processed

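The deposited values are raw counts of reads per miRNA name and spike-in RNA, 1 table for each library, made by the authors with cutadapt, BWA and bedtools on builds hg38 and mm10 per the submitters' processing notes. Their versions and roles, the miRNA annotation and the handling of reads that match several names are not given in those notes.

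Names were kept by filterByExpr with a minimum count of 10, normalised by TMM and compared by the quasi-likelihood test of edgeR 4.0.16 (R 4.3.3) over the 6 HCT116 libraries (3 residual degrees of freedom), with spike-ins left out. Scripts were checked on simulated data. An SE is the log2 fold change divided by the square root of F. Hairpin totals sum the arms of a stem, arm use is the interaction of arm and form with library as a block, and the line difference is a contrast over 12 libraries. Levels, hairpin totals, arm use, the line difference and the spike-ins are 5 families of tests, each adjusted on its own.

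The text names the 12 largest falls and 12 largest rises among called names of at least 100 CPM whose groups do not overlap, the 10 most abundant names, the 5 smallest changes at 1000 CPM, their other arms, the 5 largest hairpin changes and 8 largest arm shifts in each direction, the 4 seeds and 4 clusters (hairpins within 10 kb) of widest range, and abundant members of lists. Members, lists and rule were chosen with earlier results of these data known. Alternatives were other scalings (DESeq2 1.42.0 factors, totals, upper quartile, spike-ins), other filters, DESeq2, WT and deletion libraries only, 1 library left out, and the replicate number as a block. Loci are from GENCODE 29 (GRCh38), sequences from RefSeq.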

Additional observations from a re-analysis of the deposited data

Results flagged for a closer look

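Of the 70 names chosen by the naming rule, 69 were in the contrast between the lines, and 37 of them (53.6%, beside 34.8% of all 844 names) had a change with the deletion in HCT116 that differed from the change in HEK293T by the contrast test over all 12 libraries (edgeR adjusted p under 0.05, 2 libraries a group). Among the 539 names tested in both lines, 265 were called. The naming rule used abundance and the HCT116 changes that enter this contrast, so the share among the named is no result. The value after each name is the log2 change in HCT116 minus that in HEK293T. It was above 0 for miR-27b-5p (4.35), miR-21-3p (4.18), miR-1180-5p (4.15), miR-181b-3p (3.56), miR-21-5p (3.46), miR-301a-5p (3.24), miR-29b-1-5p (3.10), miR-331-5p (2.80) and miR-25-5p (2.54). Smaller values above 0 were those of miR-1180-3p (1.82), miR-181b-5p (1.71), miR-16-1-3p (1.70), miR-29b-2-5p (1.65), miR-222-5p (1.58), miR-361-5p (1.43), miR-92a-1-5p (1.22), miR-221-5p (1.15) and miR-222-3p (1.12). It was under 0 for miR-574-3p (−6.42), miR-27b-3p (−2.73), miR-19b-2-5p (−2.49), miR-31-3p (−2.39), miR-574-5p (−2.15), miR-19b-3p (−2.08), miR-125a-5p (−1.95), miR-19b-1-5p (−1.85) and miR-23a-3p (−1.84). Smaller ones under 0 were those of miR-29b-3p (−1.72), miR-491-3p (−1.67), miR-3615 (−1.58), miR-491-5p (−1.54), miR-24-1-5p (−1.41), miR-361-3p (−1.25), miR-484 (−1.20), miR-24-3p (−1.17), miR-31-5p (−0.98) and miR-20a-3p (−0.66).

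Some of these calls rested on single libraries. MiR-1180-3p lost its call without any 1 of 6 libraries (HCT116 deletion 1 or 2 and each HEK293T library), miR-221-5p without any of 5, miR-92a-1-5p without any of 3, miR-29b-2-5p without HEK293T WT 2 or deletion 1, miR-484 and miR-1180-5p without HCT116 deletion 2, and miR-574-5p without HEK293T deletion 1. MiR-20a-3p lost it without any 1 library other than HEK293T WT 2. Scaled to library totals, the calls of miR-484, miR-3615, miR-29b-3p, miR-574-5p, miR-31-5p, miR-24-3p, miR-491-3p, miR-24-1-5p and miR-361-3p were lost as well.

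The share of reads on 3p names moved in opposite directions in the lines. In HCT116 it was lower in both deletion libraries than in both WT libraries, as given with the arms. In HEK293T it was 40.9% and 38.1% with WT and 48.1% and 48.2% with the deletion. The change in HCT116 minus that in HEK293T was −27.8 percentage points, and the difference was not tested. In HEK293T the most abundant name took 13.9% and 11.4% of reads with WT and 26.4% and 26.4% with the deletion, whose part in that share was not tested.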

How the results depend on the processing

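The direction of moderate changes depends on the scaling. Counts that moved over 1.5-fold were 7 higher and 598 lower for levels, and 2 and 440 for hairpins, by spike-ins; 202 higher hairpins by library totals and 223 by the upper quartile; 197 and 93 for the line difference by library totals; and, with names averaging at least 100 reads, 301 levels (144 higher, 157 lower) and 212 hairpins (110 lower), where fewer names were tested. Against the spike-ins the levels that turned were miR-7974 −0.0600, miR-1268a −0.0609, miR-1268b −0.0652, miR-4517 −0.12, miR-4521 −0.18, miR-4454 −0.16, miR-491-5p −0.17, miR-19b-3p −1.35, miR-181b-5p −1.76, miR-125a-5p −1.74, miR-331-5p −1.27, miR-29b-1-5p −0.64, miR-29b-2-5p −1.04, miR-30d-5p −1.09, miR-491-3p −0.78, miR-21-3p −1.26, miR-221-5p −0.75, miR-16-1-3p −1.42, miR-24-1-5p −1.14, miR-24-2-5p −1.25, miR-29a-5p −0.37, miR-23a-5p −0.40, let-7a-2-3p −0.53, let-7a-3p −1.26, miR-19b-1-5p −0.48, miR-19b-2-5p −0.86, miR-181b-2-3p −0.65, miR-181b-3p −0.75, miR-125a-3p −0.94, miR-20a-3p −0.75, and the hairpins miR-1268b −0.0653, miR-1268a −0.0610, miR-7974 −0.0598. By library totals they were miR-21-5p 0.48, let-7a-5p 0.42, miR-361-5p 0.52, miR-20a-5p 0.49, miR-27b-5p 0.33, miR-92a-3p 0.00464, and the line difference of miR-20a-3p 0.0735; by upper-quartile factors miR-21-5p 0.26, let-7a-5p 0.21, miR-361-5p 0.28, miR-20a-5p 0.25, miR-27b-5p 0.10; with at least 100 reads miR-21-5p 0.17, let-7a-5p 0.12, miR-361-5p 0.19, miR-20a-5p 0.16, miR-27b-5p 0.00768. MiR-181b-5p and miR-125a-5p, close to 0, turned to −0.0284 and −0.0210 by DESeq2, −0.0282 and −0.0204 by its size factors, −0.22 and −0.18 without a filter, miR-181b-5p to −0.00927 without AA, and without single replicates miR-181b-5p ranged from −0.19 to 0.0172 and miR-125a-5p from −0.45 to 0.19. The cause was not tested.

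Leaving out 1 library gave 417 to 466 called levels (165 to 192 higher, 242 to 276 lower), 274 to 306 hairpins (106 to 120 and 168 to 186), 133 to 145 arm changes (36 to 40 toward 3p, 97 to 106 toward 5p), 245 to 289 line differences (76 to 114 and 155 to 193), 0 to 1 spike-ins (0 to 1 lower, 0 higher) and a ratio of yields of 4.27 to 5.72. Beside the calls named with their values, those of miR-221-5p, miR-24-1-5p, miR-24-2-5p, let-7a-3p and miR-181b-3p were lost without 1 or more libraries, and miR-16-1-3p became called without deletion replicate 1.

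Equal replicate numbers did not pair the libraries: deviations from group means correlated at 0.15, −0.10 and −0.0471 between forms. With the number as a block there were 478 called levels (216 higher, 262 lower), 312 hairpins (128 and 184), 150 arm changes (42 and 108), 285 line differences (100 and 185) and 0 spike-ins, and of the named results the line difference of miR-20a-3p lost its call (−0.66).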
